A study of Homo sapiens with 21 samples.

Results

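The genes described here are fatty acid synthase (FASN), stearoyl-CoA desaturase (SCD), the fatty acid desaturases FADS1, FADS2 and FADS3, and the elongases ELOVL1, ELOVL4, ELOVL5, ELOVL6 and ELOVL7. These 10 genes were taken by name from the 26809 genes with a transcript in the RNA-seq tables, not by any measured value, and all 10 passed the filter on low counts. RNA had been sequenced from 786-O, a single established cell line from a human renal carcinoma of the clear cell type. The cells carried either a control guide RNA and unedited JMJD6 (labelled WT, 3 libraries), or a guide against JMJD6 called sg2 (3 libraries) or sg4 (3 libraries), both labelled JMJD6 knockout. JMJD6 is an oxygenase that uses 2-oxoglutarate, and the study asks how it bears on lipid metabolism in this cancer. The labels do not say whether the edited cells were a pool or a clone, nor whether the 3 libraries of a group came from separate cultures. The p-values below therefore measure the spread between these libraries, which may be technical. The treatment text of the labels describes siRNA transfection, whereas titles, genotype and extraction text name guides, and the groups follow the guides.

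Fatty acid synthase builds palmitate from acetyl-CoA and malonyl-CoA. Palmitate is then lengthened at the endoplasmic reticulum, where an elongase carries out the condensing step of each cycle, and desaturases place double bonds with electrons from cytochrome b5. SCD makes oleate and palmitoleate from saturated chains, while FADS2 and FADS1 act in turn, with ELOVL5 between them, on the path from dietary linoleate to arachidonate. Clear cell renal carcinoma is known for cytoplasm filled with stored triglyceride and cholesteryl ester, and many genes of this pathway are targets of the sterol-regulated factors SREBP, which are often found beside the CCAAT-binding factor NF-Y at promoters.

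The promoters of 4 of these genes are shown because FADS2 and ELOVL5 rose, FADS3 fell and SCD is the most abundant of the group without a called change. Each sequence is the 250 bases before an annotated start, from RefSeq on GRCh38.p14, read 5′ to 3′ on the gene's own strand. Capitals mark NF-Y boxes (CCAAT, or ATTGG on the other strand) and the E-box CACGTG. The windows are chr11:61815953-61816202 on the plus strand for FADS2, chr11:61891546-61891795 on the minus strand for FADS3, chr6:53348951-53349200 on the minus strand for ELOVL5 and chr10:100346983-100347232 on the plus strand for SCD.
FADS2: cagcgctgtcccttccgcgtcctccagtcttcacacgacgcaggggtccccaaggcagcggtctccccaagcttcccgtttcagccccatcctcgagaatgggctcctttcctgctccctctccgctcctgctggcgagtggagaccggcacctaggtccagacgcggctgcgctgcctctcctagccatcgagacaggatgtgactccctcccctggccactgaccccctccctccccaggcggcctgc
FADS3: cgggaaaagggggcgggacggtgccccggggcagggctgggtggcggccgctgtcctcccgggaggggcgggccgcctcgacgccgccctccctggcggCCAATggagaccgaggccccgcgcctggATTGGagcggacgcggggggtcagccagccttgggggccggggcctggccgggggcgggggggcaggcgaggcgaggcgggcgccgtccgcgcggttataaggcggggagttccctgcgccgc
ELOVL5: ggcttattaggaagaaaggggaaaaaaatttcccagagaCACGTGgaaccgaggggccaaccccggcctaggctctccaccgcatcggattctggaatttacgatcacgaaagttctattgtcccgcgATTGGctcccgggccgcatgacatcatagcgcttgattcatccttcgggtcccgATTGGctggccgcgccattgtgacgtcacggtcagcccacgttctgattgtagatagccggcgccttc
SCD: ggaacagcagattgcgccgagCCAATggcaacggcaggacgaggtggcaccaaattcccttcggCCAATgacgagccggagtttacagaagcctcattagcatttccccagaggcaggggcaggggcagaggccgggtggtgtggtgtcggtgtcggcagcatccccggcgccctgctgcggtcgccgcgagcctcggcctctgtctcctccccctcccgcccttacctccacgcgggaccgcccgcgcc

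The ELOVL5 window holds NF-Y boxes 122 and 68 bases before the start and an E-box 211 bases before it. The FADS3 window holds NF-Y boxes 151 and 123 bases before the start, and the SCD window holds them at 229 and 186 bases. The FADS2 window holds neither motif. The reference table had windows for 9 of the 10 genes (10 windows, FADS2 having 2 starts; FASN had none). NF-Y boxes were present in 5 of these 9 genes (SCD, FADS3, ELOVL1, ELOVL4 and ELOVL5), and 32.0% of all 35116 promoters of the same length, noncoding genes included, held at least 1. E-boxes were present in ELOVL4 and ELOVL5, against 6.34% of all promoters. The GC box GGGCGG, searched on both strands, was present in 8 of the 9 genes, all but ELOVL5, against 42.6% of all promoters. FADS2 counted only through the window of its other start, and the FADS2 window shown above held 0. These counts are per gene, with a match in any window, whereas the shares are per promoter. The sterol element TCACNCCAC, searched on both strands, was in 0 of the 9 genes and in 0.883% of all promoters. With so low a share, a count of 0 does not set these genes apart from other promoters. Sequence outside the windows was not searched. In these windows the NF-Y box was present for FADS3, which fell, and for ELOVL5, which rose. It was absent for FADS2 and ELOVL6, which also rose. The counts divide FADS2 among 3 transcripts, and which of them start at its 2 windows was not determined. A FADS2 promoter outside these windows may therefore be missing. Whether the motifs bear on the changes was not tested.

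FADS1, FADS2 and FADS3 lie next to each other on chromosome 11, in the order MYRF, TMEM258, FEN1, FADS1, FADS2, FADS3, RAB3IL1. In the reference, the spans of FADS1 and FADS2 overlap on opposite strands. The strand setting of the counting is not given in the sources used here, so reads from the shared stretch cannot be told apart. The other members lie alone, FASN on chromosome 17, SCD on 10, ELOVL1 on 1, ELOVL4 and ELOVL5 on 6, ELOVL6 on 4 and ELOVL7 on 5.

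Libraries held from 14224263 to 16300347 estimated counts. JMJD6 mRNA, in CPM (counts scaled by edgeR's normalised library size), was 40.9 to 44.4 in the controls, 16.1 to 17.3 with sg2 and 10.7 to 14.4 with sg4, so every knockout library was below every control. The summed level of 12 renal epithelial and carcinoma markers, in TPM (counts scaled per transcript length and per library), was 6741 to 7128 in the controls, 6959 to 7366 with sg2 and 6898 to 7296 with sg4, led by VIM, KRT8 and KRT18. The sum hides changes of single markers. Of 11 tested with both guides, KRT18 and KRT8 were called higher, and CDH16 and GGT1 lower. Of all tested genes, 6.92% were called higher and 6.95% lower. The 6 adipocyte and hepatocyte markers summed to at most 0.825 TPM in any library, with ADIPOQ, LEP, APOA2 and TTR at 0. The 7 fibroblast markers, all above 0 in at least 1 library, summed to 30.1 to 59.6 TPM in the controls, 15.8 to 23.9 with sg2 and 18.3 to 25.0 with sg4. Of 5 tested, 3 were called lower with both guides (ACTA2, COL1A2 and LUM) and 0 higher. The 9 leukocyte and endothelial markers summed to 67.1 to 87.4 TPM in the controls, 53.2 to 61.2 with sg2 and 54.3 to 64.7 with sg4, with CD3E and CDH5 among those at 0. Of its 2 tested genes, CD68 was called lower and CSF1R higher. The 4 airway markers summed to 3.43 to 22.9 TPM in the controls, 27.3 to 45.4 with sg2 and 25.0 to 77.9 with sg4. The 2 tested, SCGB1A1 and BPIFB1, were called higher with both guides. The fibroblast, leukocyte and endothelial, and airway sums separated the controls from the knockouts, and their part in the results below was not tested. In control library 3 and sg4 libraries 2 and 3 the counts varied most with transcript length, by −0.11, 0.09 and 0.09 on the log2 scale among the shortest genes. In bulk RNA, fewer cells of a kind and less RNA per cell cannot be told apart.

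In control cells the desaturases SCD and FADS2 were the most abundant of the 10 mRNAs. Mean levels were 587 ± 32.7 TPM for SCD and 296 ± 4.34 TPM for FADS2 (SD, n = 3 here and below), and SCD stood at percentile 98.4 and FADS2 at 96.5 of the 13530 tested genes. ELOVL1 followed at 200 ± 8.88 TPM, ELOVL5 at 130 ± 2.45, FADS1 at 123 ± 6.37, FASN at 93.9 ± 7.48, FADS3 at 86.4 ± 6.02 and ELOVL6 at 59.4 ± 3.86. The remaining elongases were far lower, ELOVL7 at 14.2 ± 2.22 TPM and ELOVL4 at 0.81 ± 0.74 TPM. SCD was 1.98 times FADS2, ELOVL6 was 4.20 times ELOVL7, and ELOVL7 was 17.4 times ELOVL4. The control libraries of neighbours in this order did not overlap, except for ELOVL5 with FADS1 and FASN with FADS3. Over all 9 libraries FADS3 and ELOVL6 overlapped too. The 10 genes together made 1488 to 1744 TPM of a library, and SCD alone 34.5% to 37.9% of that sum.

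**Figure D1:**
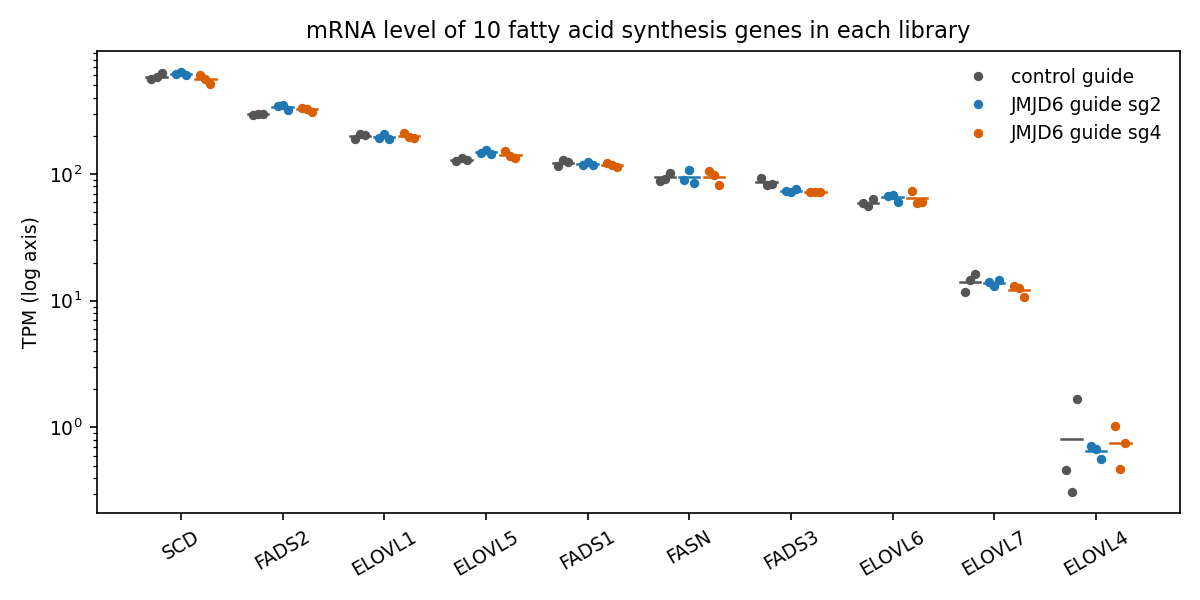
TPM of the 10 genes in each of the 9 libraries (log axis), ordered by their mean in the controls, with points for libraries and short lines for group means. SCD lies between 514 and 641 TPM in every library, and ELOVL4 between 0.31 and 1.67 TPM.

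With JMJD6 guides, FADS2, ELOVL5 and ELOVL6 mRNA rose and FADS3 mRNA fell, while FASN, SCD, FADS1, ELOVL1, ELOVL4 and ELOVL7 did not pass the test. The changes were small, 16.1% for FADS2, 17.1% for ELOVL5, 13.5% for ELOVL6 and −11.9% for FADS3 as the mean of both guides. The calls thus split both within the desaturases and within the elongases. In this comparison, 3 of the 10 genes were called higher where 6.92% of all tested genes were, and 1 was called lower where 6.95% were (13.9% in either direction; edgeR's quasi-likelihood fit, calls at a p under 0.05 after Benjamini-Hochberg adjustment). Without control library 3 and sg4 libraries 2 and 3 the counts were again 3 and 1, with sg4 then represented by 1 library. The median log2 fold change of the 10 genes was 0.06, against −0.01 over all tested genes, and 7 of the 10 values were positive.

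FASN, the synthase itself, had 377, 394 and 425 CPM in the controls, 388, 471 and 362 with sg2, and 459, 444 and 378 with sg4. Both knockout groups overlapped the controls, with 3 of 6 knockout libraries above every control and 1 below. Its log2 fold change with both guides was 0.06 ± 0.07 (SE; edgeR adjusted p = 0.593).

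SCD, which makes monounsaturated chains, had 1514, 1590 and 1642 CPM in the controls, 1676, 1785 and 1644 with sg2, and 1688, 1627 and 1501 with sg4. All 3 sg2 libraries were above every control in CPM, though not in TPM (614, 641 and 603 against 559, 580 and 623), and sg4 reached above and below the controls. Against the control, the log2 fold change was 0.11 ± 0.05 with sg2 (edgeR adjusted p = 0.202) and 0.02 ± 0.05 with sg4 (edgeR adjusted p = 0.856). With both guides it was 0.06 ± 0.04 (edgeR adjusted p = 0.390). The ratio of SCD to FASN, in log2 of TPM, was 2.65 ± 0.04 in the controls, 2.73 ± 0.13 with sg2 and 2.57 ± 0.07 with sg4, and knockouts minus controls came to 0.003 (exact permutation test, 2-sided, p = 0.964).

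FADS2 adds the first new double bond on the path from linoleate to arachidonate. It had 438, 454 and 437 CPM in the controls, 520, 544 and 486 with sg2, and 511, 521 and 504 with sg4. Each of the 6 knockout libraries was above every control, a separation that 7.76% of all tested genes showed. The log2 fold change was 0.22 ± 0.05 with sg2 (edgeR adjusted p = 0.00640) and 0.21 ± 0.05 with sg4 (edgeR adjusted p = 0.0123). For both guides it was 0.22 ± 0.05 (edgeR adjusted p = 0.00220), and this call remained without any one of the 9 libraries. The call with sg4 alone was lost without control library 1 (edgeR adjusted p = 0.0550) or control library 3 (0.0514). Without control library 3 and sg4 libraries 2 and 3 together, the sg4 group has 1 library, which the fit assumes to vary like the other groups, and the log2 value was 0.20 ± 0.07 (edgeR adjusted p = 0.177). The deposited estimates divided FADS2 among 3 transcripts at 30.8% to 32.9%, 30.4% to 31.9% and 36.2% to 38.5% of its TPM, ranges that held over all 9 libraries. How reads were split among transcripts is not stated.

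FADS1, the desaturase that acts after FADS2 and whose gene overlaps it, did not pass the test. It had 251, 282 and 260 CPM in the controls, 256, 278 and 255 with sg2, and 272, 269 and 265 with sg4. All 6 knockout libraries lay within the control range. Its log2 fold change with both guides was 0.01 ± 0.05 (edgeR adjusted p = 0.943).

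FADS3 acts on the sphingoid bases of ceramides. It had 73.1, 65.3 and 63.8 CPM in the controls, 58.5, 58.3 and 60.6 with sg2, and 57.7, 60.3 and 60.9 with sg4. Every knockout library was below every control, which held for 7.18% of tested genes. The log2 fold change was −0.18 ± 0.06 for both guides (edgeR adjusted p = 0.0414), −0.19 ± 0.07 for sg2 (edgeR adjusted p = 0.0840) and −0.18 ± 0.07 for sg4 (edgeR adjusted p = 0.117). The call for both guides was lost in 7 of the 9 fits that left out 1 library, namely control library 1 or 2, sg2 library 1 or 2, or any sg4 library. Of these, the fit without control library 1 gave the smallest change, −0.12 ± 0.07 (edgeR adjusted p = 0.344), and the other 6 gave adjusted p from 0.0518 to 0.0873.

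The 3 neighbouring desaturase genes thus gave 1 increase, 1 decrease and 1 value near 0. Their other neighbour TMEM258, a subunit of the oligosaccharyltransferase, had 14.6, 13.1 and 12.2 CPM in the controls, 24.4, 23.3 and 22.7 with sg2, and 23.3, 23.4 and 25.7 with sg4. Its log2 fold change was 0.84 ± 0.09 (edgeR adjusted p = 2.04e-06). With an offset for the trend of counts with transcript length it was 0.54 (edgeR adjusted p = 2.50e-04), and the mean effective length of this gene was 125 bases. For MYRF the log2 value was −0.14 ± 0.05 (edgeR adjusted p = 0.0738), for FEN1 0.14 ± 0.07 (edgeR adjusted p = 0.163) and for RAB3IL1 −0.07 ± 0.12 (edgeR adjusted p = 0.774).

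Within the FADS family, FADS2 took a larger share of the summed TPM after JMJD6 knockout. Its share was 58.2%, 58.5% and 59.1% in the controls, 64.2%, 64.1% and 62.4% with sg2, and 63.0%, 63.2% and 62.6% with sg4. The 6 knockout libraries were all above the controls, by a mean of 4.69 percentage points (exact permutation test, 2-sided, p = 0.0119, the smallest that 84 splits allow; 0.0298 adjusted over 10 ratios). The share of FADS3 was 18.6%, 16.2% and 16.5% in the controls, 13.1% to 14.8% with sg2, and 13.6% to 14.5% with sg4. It was lower in all 6 knockout libraries, and the mean difference was −3.13 points (exact permutation p = 0.0119, adjusted 0.0298). FADS1 had 24.3% ± 1.05 in the controls, 22.5% ± 0.433 with sg2 and 23.0% ± 0.310 with sg4, with 5 of 6 knockout libraries below every control and a difference of −1.55 points (exact permutation p = 0.0238, adjusted 0.0476). Shares of one family sum to a fixed total, so these 3 tests are not independent. SCD made 99.7% of the sum of SCD and its homologue SCD5 in each group.

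Among the elongases, ELOVL5, which lengthens polyunsaturated chains, rose. It had 179, 191 and 176 CPM in the controls, 209, 227 and 207 with sg2, and 222, 208 and 205 with sg4. All 6 knockout libraries were above every control, as in 7.76% of tested genes. The log2 fold change was 0.23 ± 0.05 for both guides (edgeR adjusted p = 0.00331), 0.24 ± 0.06 for sg2 (edgeR adjusted p = 0.00920) and 0.22 ± 0.06 for sg4 (edgeR adjusted p = 0.0175). The call for both guides remained without any one library. That for sg2 was lost without sg2 library 2 (edgeR adjusted p = 0.0564). That for sg4 was lost without control library 1, control library 3 or sg4 library 1 (edgeR adjusted p 0.0547 to 0.0812). With the 1 sg4 library left when control library 3 and sg4 libraries 2 and 3 are all removed, the log2 value was 0.27 ± 0.08 (edgeR adjusted p = 0.0807). Of the 5 ELOVL5 transcripts, a short one of 831 bases took 1.77% to 4.21% of its TPM in any library.

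ELOVL6 lengthens palmitate, the product of FASN. It had 92.6, 88.2 and 96.7 CPM in the controls, 106, 111 and 95.1 with sg2, and 117, 99.4 and 101 with sg4. Of the 6 knockout libraries, 5 were above every control, and sg2 library 3 lay within the control range. The log2 fold change was 0.18 ± 0.06 for both guides (edgeR adjusted p = 0.0475), 0.17 ± 0.07 for sg2 (edgeR adjusted p = 0.129) and 0.20 ± 0.07 for sg4 (edgeR adjusted p = 0.0859). The call for both guides was lost in 6 of the 9 fits without 1 library, namely any control library, sg2 library 1 or 2, or sg4 library 1 (edgeR adjusted p 0.0572 to 0.203). Without control library 3 and sg4 libraries 2 and 3 together, ELOVL6 was called with sg4, with a change of 0.37 ± 0.09 in log2 terms (edgeR adjusted p = 0.0379), but this value rests on 1 sg4 library whose spread is taken from the other groups.

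ELOVL1, the main elongase of saturated very long chains in most cells, had 119 to 131 CPM in the controls, 121 to 134 with sg2 and 129 to 135 with sg4. The ranges overlapped, and the log2 fold change with both guides was 0.05 ± 0.05 (edgeR adjusted p = 0.614). ELOVL7, which also lengthens saturated chains, had 22.4, 27.9 and 30.1 CPM in the controls, 27.0, 25.5 and 28.1 with sg2, and 25.4, 25.6 and 22.1 with sg4. Its log2 fold change was −0.07 ± 0.09 (edgeR adjusted p = 0.705). ELOVL4, known from retina and skin, rested on 7 to 33 counts a library. Its counts were 10, 7 and 33 in the controls, 17, 14 and 12 with sg2, and 24, 11 and 18 with sg4. Control library 3 alone held more than any knockout library. The log2 fold change was −0.12 ± 0.43 (edgeR adjusted p = 0.896), turning to 0.88 ± 0.50 without that library, so that a change was not detectable at this depth.

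**Figure D2:**
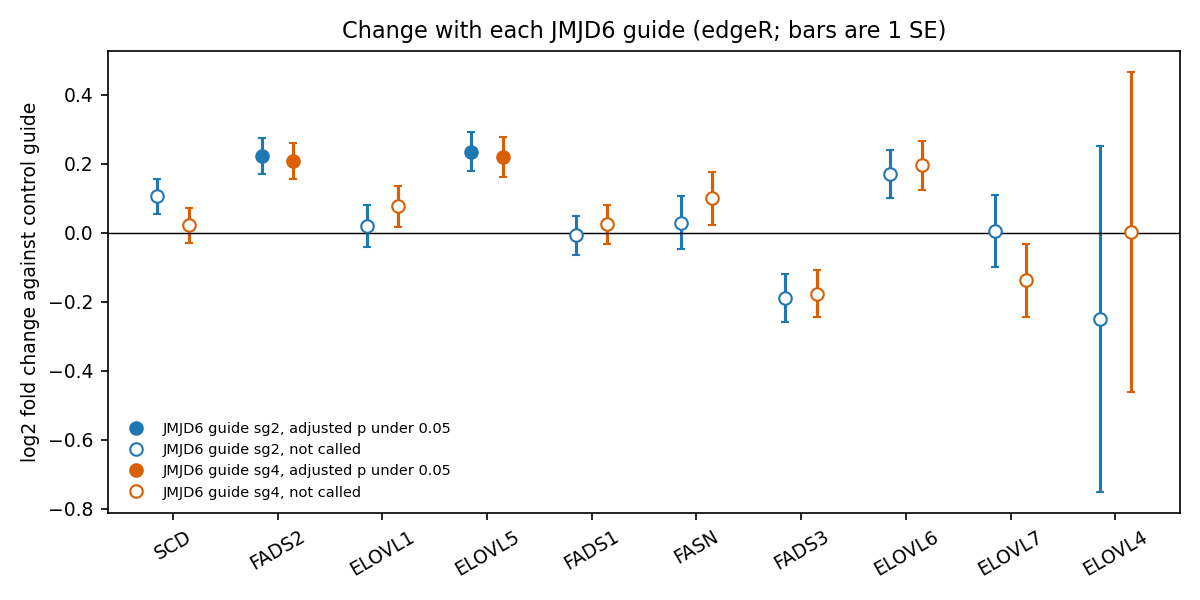
log2 fold change of each of the 10 genes against the control guide for sg2 and sg4, with bars of 1 SE (edgeR) and filled points for adjusted p under 0.05. FADS2 and ELOVL5 have filled points with both guides, between 0.21 and 0.24, and FADS3 lies below 0 with both, at −0.19 and −0.18.

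By TPM, ELOVL1 was the leading elongase in every library, and its share of the sum of ELOVL1 to ELOVL7 shrank as that of ELOVL5 grew. ELOVL1 held 47.2%, 49.1% and 47.4% in the controls, 44.5%, 45.1% and 44.6% with sg2, and 45.2%, 46.4% and 46.6% with sg4. All 6 knockout libraries were below the controls, with a mean difference of −2.46 points (exact permutation p = 0.0119, adjusted 0.0298). ELOVL5 held 31.8%, 31.5% and 30.3% in the controls, 33.7%, 33.9% and 34.1% with sg2, and 32.8%, 33.2% and 32.8% with sg4. Its share was higher in all 6 knockout libraries, by 2.24 points (exact permutation p = 0.0119, adjusted 0.0298). ELOVL6 held 14.2% ± 0.875 in the controls, 14.9% ± 0.611 with sg2 and 14.8% ± 0.773 with sg4 (exact permutation p = 0.262), and ELOVL7 3.38% ± 0.426, 3.17% ± 0.314 and 2.81% ± 0.188 (exact permutation p = 0.167). ELOVL4 held 0.193% ± 0.171, 0.148% ± 0.0167 and 0.172% ± 0.0545 (exact permutation p = 0.738). These shares too sum to a fixed total, so the tests are not independent of each other or of the ELOVL5 call. ELOVL1 itself had a mean of 200 TPM in the controls, 197 with sg2 and 199 with sg4.

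**Figure D3:**
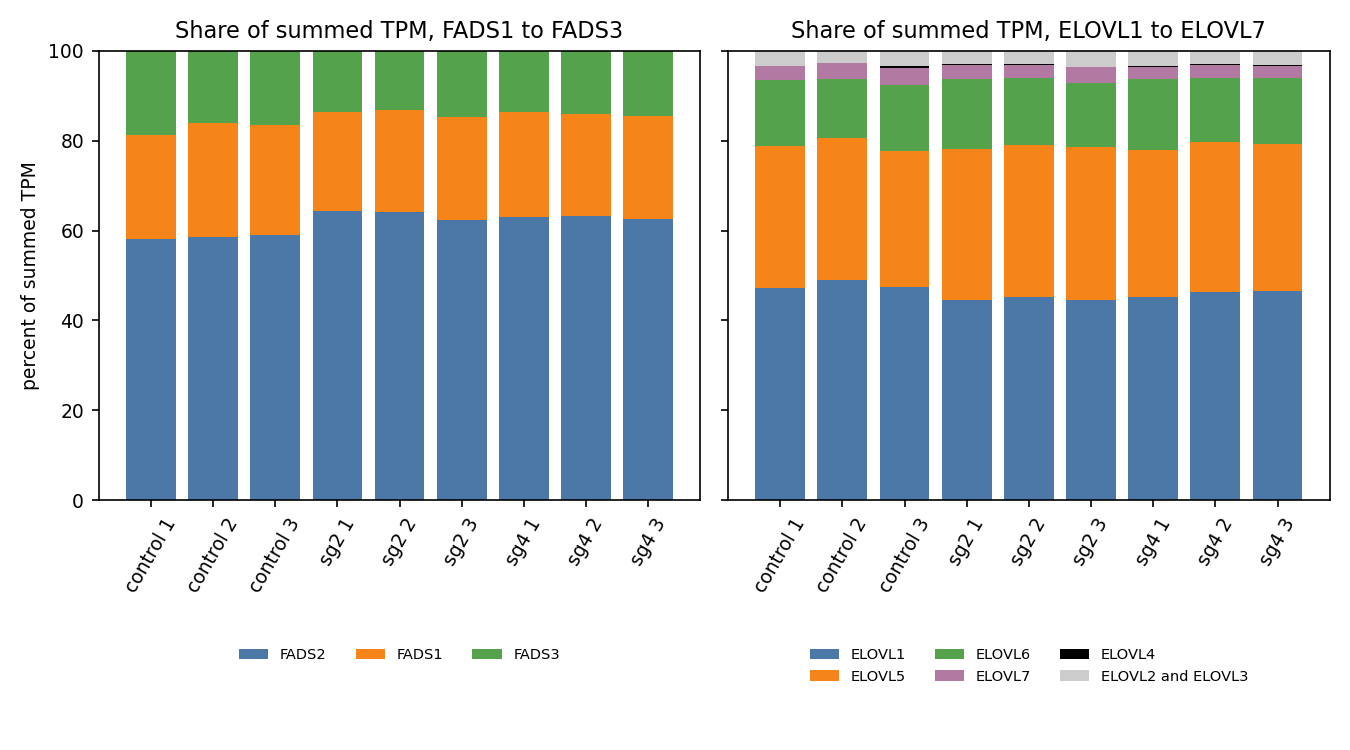
Share of each gene in the summed TPM of FADS1 to FADS3 (left) and ELOVL1 to ELOVL7 (right), in percent, with 1 stacked bar per library. The FADS2 segment spans 58.2% to 59.1% in the controls and 62.4% to 64.2% in the knockouts, and the ELOVL1 segment 47.2% to 49.1% and 44.5% to 46.6%.

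The guides were also read apart. Both comparisons use the same 3 control libraries, so they are not independent. With sg2, FADS2 and ELOVL5 were called higher, 2 of 10 where 5% of tested genes were called higher, and 0 of 10 were called lower where 5.36% were (10.4% in either direction). With sg4, the same 2 genes were called higher where 4.65% of tested genes were, and 0 of 10 lower where 3.78% were (8.43% in either direction). DESeq2 gave 2 higher and 0 lower for each guide. Of 13530 tested genes it called 728 higher and 730 lower with sg2, and 664 higher and 511 lower with sg4. At an unadjusted edgeR p under 0.05, 4 genes were higher and 1 lower with sg2, and 3 were higher and 1 lower with sg4. The share of all tested genes at that unadjusted threshold is not given, so such counts, here and below, cannot be set against it. The median log2 fold change of the 10 genes was 0.02 with sg2 and 0.05 with sg4. Set directly against sg2, sg4 gave 0 calls among the 10 genes by edgeR or DESeq2, with 0 at an unadjusted edgeR p under 0.05, where 0.0591% of tested genes were called (0.0443% higher, 0.0148% lower). The smallest edgeR adjusted p there was 0.614, for SCD, whose log2 difference of sg4 from sg2 was −0.08.

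Relatives of these genes in the same families gave no call. SCD5 stood at 2.01 TPM in the controls, 1.83 with sg2 and 1.68 with sg4, and its log2 fold change was −0.20 ± 0.27 (edgeR adjusted p = 0.709). ELOVL2, another elongase of polyunsaturated chains, stood at 12.2, 13.4 and 13.3 TPM, and its log2 value was 0.18 ± 0.09 (edgeR adjusted p = 0.196). ELOVL3 had 1 to 14 counts a library and was not tested, and FADS6 had 0 counts in every library. Of the family members outside the 10 genes, 3 were tested (SCD5, ELOVL2 and the ceramide desaturase DEGS1), with 1 at an unadjusted edgeR p under 0.05 and 0 called by DESeq2. Of these 3, edgeR called 0, where 13.9% of all tested genes were called in either direction.

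Upstream of the synthase, the enzymes that supply acetyl-CoA, malonyl-CoA and NADPH showed no call. Of 17 tested genes, 0 were called by edgeR, where 13.9% of all tested genes were called in either direction. At an unadjusted edgeR p under 0.05 there were 6 (3 higher, 3 lower). DESeq2 called 1 higher, where it called 943 of 13530 tested genes higher. The median log2 fold change of the 17 genes was −0.05. ACLY, which makes cytosolic acetyl-CoA from citrate, had 469, 486 and 471 CPM in the controls, 521, 531 and 488 with sg2, and 539, 516 and 506 with sg4. All 6 knockout libraries were above every control, which held for 7.76% of tested genes. The log2 fold change was 0.12 ± 0.04 (edgeR adjusted p = 0.0681). For ACACA, which makes malonyl-CoA, the log2 value was 0.01 ± 0.06 (edgeR adjusted p = 0.931).

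Of 12 tested genes of the synthase accessories and the mitochondrial synthesis path, 1 was called lower, near the 6.95% of all tested genes. This was HSD17B8, a subunit of the mitochondrial ketoacyl reductase, which had 2 to 18 counts a library and fell by 1.56 on the log2 scale (SE 0.47; edgeR adjusted p = 0.0270). The log2 value was −0.86 ± 0.51 with sg2 (edgeR adjusted p = 0.320) and −2.27 ± 0.61 with sg4 (edgeR adjusted p = 0.0202). Its call was lost in 6 of 9 fits without 1 library.

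The enzymes that finish each elongation cycle after the condensing step showed 0 calls among 5 tested genes (0 at an unadjusted edgeR p under 0.05, 0 by DESeq2). Of all tested genes, 13.9% were called in either direction. Log2 fold changes were −0.04 ± 0.07 for the ketoreductase HSD17B12 (edgeR adjusted p = 0.745), 0.10 ± 0.05 for the dehydratase HACD3 (edgeR adjusted p = 0.222) and −0.08 ± 0.05 for the enoyl reductase TECR (edgeR adjusted p = 0.276). Of 5 tested electron donors of the desaturases, 1 was called lower, where 6.95% of all tested genes were. This was the cytochrome b5 reductase CYB5R3, which fell by 0.15 on the log2 scale (SE 0.05; edgeR adjusted p = 0.0387). It was called with sg2, at −0.22 ± 0.06 (edgeR adjusted p = 0.0145), and not with sg4, at −0.09 ± 0.06 (edgeR adjusted p = 0.388). This call was lost in 6 of 9 fits without 1 library. Cytochrome b5 type B, CYB5B, stood 0.01 ± 0.05 higher in log2 terms (edgeR adjusted p = 0.945).

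Of 29 tested regulators of SREBP and of the sterol receptor LXR, 1 was called higher and 3 lower, 4 calls where 13.9% of all tested genes were called in either direction, so their number is near that share. INSIG1, a sterol-dependent retainer of SREBP and itself an SREBP target, had 181, 213 and 207 CPM in the controls, 242, 274 and 221 with sg2, and 306, 258 and 259 with sg4. Its log2 fold change was 0.37 ± 0.07 (edgeR adjusted p = 4.21e-04). SCAP, the escort that carries SREBP to the Golgi, had 105, 112 and 107 CPM in the controls, 91.3, 88.3 and 91.1 with sg2, and 90.2, 94.2 and 95.1 with sg4. Its log2 fold change was −0.24 ± 0.05 (edgeR adjusted p = 0.00242). Both separated all 6 knockout libraries from the controls and stayed called without any one library. Such separation was found upward in 7.76% and downward in 7.18% of tested genes.

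The other genes of that list that fell were MBTPS1, the protease that first cleaves SREBP, and PPARA, a fatty acid receptor. MBTPS1 fell by 0.16 on the log2 scale (SE 0.05; edgeR adjusted p = 0.0322), and PPARA by 0.21 (SE 0.07; edgeR adjusted p = 0.0357). These calls were lost in 6 and 7 of 9 fits without 1 library. SREBF1, the gene of the SREBP that drives fatty acid synthesis, missed the threshold at −0.15 ± 0.05 (edgeR adjusted p = 0.0508). In all 6 knockout libraries it was below every control, which held for 7.18% of tested genes. SREBF2, whose product favours sterol synthesis, had 0.04 ± 0.05 (edgeR adjusted p = 0.660).

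Of 15 tested SREBP targets outside the 10 genes, 8 rose, where 6.92% of all tested genes were called higher. In this list 0 fell, where 6.95% of all tested genes were called lower. At an unadjusted edgeR p under 0.05 and by DESeq2, 0 were lower. The median log2 fold change of the list was 0.22, against −0.01 over all tested genes. Among the 8 were SQLE, FDFT1, IDI1 and FDPS, enzymes of sterol synthesis, and TMEM97 and PNPLA3. SQLE, the squalene epoxidase, rose by 0.33 ± 0.07 in log2 terms (edgeR adjusted p = 0.00134). FDFT1, the squalene synthase, had 0.31 ± 0.07 (edgeR adjusted p = 0.00232). IDI1, an isomerase earlier in the same path, had 0.28 ± 0.08 (edgeR adjusted p = 0.0203), lost without control library 1 or sg2 library 2. The calls of SQLE and FDFT1 remained without any one library, while those of PNPLA3, FDPS and TMEM97 were lost in 2, 7 and 6 of the 9 fits without 1 library. With each guide alone, 3 of 15 were called higher with sg2, where 5% of all tested genes were, and 4 of 15 with sg4, where 4.65% were.

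Of 5 tested LXR targets outside the 10 genes, 1 was called lower, where 6.95% of all tested genes were. SMPDL3A, a phosphodiesterase, fell by 0.34 on the log2 scale (SE 0.08; edgeR adjusted p = 0.00710). That call was lost without control library 3 and sg4 libraries 2 and 3 together, with sg4 represented by 1 library (edgeR adjusted p = 0.0527). Of 11 tested users of unsaturated chains, 1 was called higher, near the 6.92% of all tested genes. ACSL4, which activates arachidonate, rose by 0.24 ± 0.05 in log2 terms (edgeR adjusted p = 0.00438). ACSL4 had 146, 157 and 154 CPM in the controls, 177, 192 and 172 with sg2, and 191, 165 and 181 with sg4. Every knockout library was thus above every control, as in 7.76% of tested genes. Of 9 tested users of very long chains, 0 were called, where 13.9% of all tested genes were called in either direction. In this list 1 gene was lower at an unadjusted edgeR p under 0.05, and DESeq2 called 0. Over all pathway lists, 10 of 110 tested genes were called higher and 6 lower with both guides, next to 6.92% and 6.95% of all tested genes. Without control library 1 there were 4 higher and 3 lower, where 503 and 435 of all 13676 tested genes were. Without sg2 library 2 there were 6 higher, where 792 of 13711 tested genes were. Without control library 2 or 3 there were 3 lower, where 714 and 540 of 13706 tested genes were. Without sg4 library 3 there were 2 lower, where 779 of 13696 tested genes were. In the main fit 936 of 13530 tested genes were called higher and 941 lower.

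**Figure D4:**
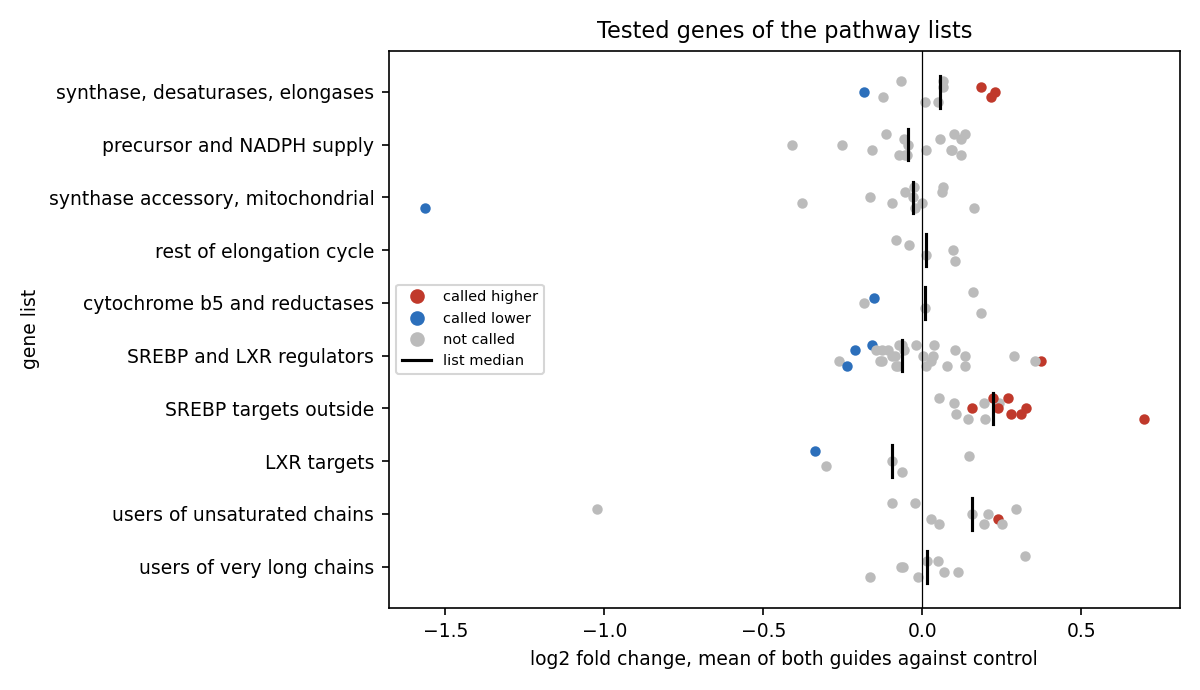
log2 fold change (mean of both guides against control) of each tested gene in the pathway lists, 1 row per list, coloured by edgeR call, with a bar at the list's median. The bar of the SREBP targets outside the 10 genes stands at 0.22 and that of the 10 genes at 0.06.

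Across the 9 libraries, FADS2 and ELOVL5 moved most alike of any pair of the 10 genes, with a Pearson correlation of log2 CPM of 0.943. FADS1 and ELOVL1 followed at 0.903. FADS3 ran opposite to FADS2 at −0.841 and to ELOVL5 at −0.843. These libraries fall into the groups described above and share their depth scaling, so the coefficients are descriptions only. Among 10217 other genes whose log2 CPM averaged 3 or more, the closest to FADS2 were SHCBP1 at 0.983, SLC25A5 at 0.978 and ZMPSTE24 at 0.976. The closest to ELOVL5 were ASPH at 0.986, DPYSL3 at 0.979 and GCNT1 at 0.976, and those closest to FADS3 were HPS1 at 0.946, FBXO44 at 0.938 and NEK6 at 0.937. SCD was followed most closely by TOR1AIP1 at 0.985, NUP153 at 0.976 and ATP2A2 at 0.967, and FASN by MAGED1 at 0.938, RDH11 at 0.930 and ACAD10 at 0.919.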

How the data were processed

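RNA-seq tables of 9 libraries were used. Each deposited table lists RefSeq transcripts with a TPM and an estimated count in the layout of Salmon, per the file headers. The deposited counts hold no fractions, and what rounded them is not given in the sources used here. Salmon, STAR 2.5.2b, cutadapt 1.12 and DESeq2 and the builds hg19 and GRCh37 are named in the submitters' processing notes, without roles. Deposited TPM values were summed per gene for levels and shares. Estimated counts were summed per gene through a GRCh38.p14 gene table (58031 of 60422 accessions matched, 96.0%), used for names, gene order and promoter windows. Peak lists and inputs, 12 samples, were not used here.

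All 9 libraries entered 1 edgeR 4.0.16 quasi-likelihood fit (R 4.3.3, TMM, filterByExpr, 13530 genes). The fit was also run on simulated data. Changes planted there were all larger than those of the called members, so changes as small as theirs were not covered. Calls needed a p under 0.05 after Benjamini-Hochberg adjustment over all genes, 2-sided. Alternatives were DESeq2 1.42.0, its size factors in edgeR, upper quartile scaling, no filter, only the compared groups, limma 3.58.1 on log2(TPM + 1), a length-trend offset (spline of 5 degrees of freedom), a replicate block, and left-out libraries. Shares were compared by exact permutation of libraries. Named were the 10 members, JMJD6, chromosome 11 neighbours, up to 4 called genes of smallest adjusted p per list, genes fixed by role, and the 3 genes most correlated with each of 5 members. The choice of PNPLA3, FDPS, TMEM97, DEGS1, ELOVL2, ELOVL3 and FADS6 as named genes came after seeing their values. A few genes of the lists are not reported here. The members and lists were chosen with earlier results of these data known.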

Additional observations from a re-analysis of the deposited data

How the results depend on the processing

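FADS2 with both guides was called under all 9 other settings, and ELOVL5 under 8, the exception being limma on log2(TPM + 1) (0.16, adjusted p = 0.0581). Limma gave 1 member higher with both guides, 1 with sg2 and 0 with sg4, 1 lower with sg2 and 1 with sg4, and 2 pathway genes higher and 11 lower. Its median log2 value over all tested genes was −0.0579 with both guides and −0.0828 with sg4, against −0.0059 and −0.0085 in the main fit. Limma turned FADS1 to −0.0469, ELOVL1 to −0.0158 and SCD with sg4 to −0.0644. It called 318 genes higher and 1056 lower with both guides, against 936 and 941. With the length-trend offset those numbers were 1159 and 777, and pathway genes 16 higher and 3 lower. Deviations of log2 CPM from each library's group mean correlated at −0.141 to 0.052 between same-numbered libraries of different groups. Between differently numbered ones they correlated at −0.08 to 0.122, so the replicate numbers showed no pairing here. With a replicate block, alone or with the length-trend offset, 0 members were lower (FADS3 adjusted p = 0.0683 and 0.0681), and the latter left 3 pathway genes lower. Over all tested genes these 2 fits called 763 and 671 lower. ELOVL6 lost its call under upper quartile scaling (adjusted p = 0.0529), limma (0.325) and the block (0.0721). Without control library 3 and sg4 libraries 2 and 3, a fit with 1 sg4 library assumed to vary like the other groups, 1 member was higher with sg4, ELOVL4 was 1.08, ELOVL7 0.0544 and the ELOVL4 share 0.0708 points. Share differences were then −1.51 (FADS1), 5.10 (FADS2), −3.59 (FADS3), −3.25 (ELOVL1) and 1.98 points (ELOVL5), with too few splits to reach the threshold.

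Leaving out 1 library at a time gave 0 to 1 member lower with both guides, 1 to 3 higher with sg2, 0 to 2 higher with sg4, and 4 to 15 pathway genes higher and 2 to 6 lower. Over all tested genes these fits called 503 to 953 higher and 435 to 925 lower with both guides. They called 348 to 782 genes higher with sg2 and 344 to 666 higher with sg4. Shares ranged from −2.11 to −1.06 points for FADS1, 4.47 to 4.92 for FADS2, −3.60 to −2.37 for FADS3, −2.82 to −1.87 for ELOVL1, 1.78 to 2.52 for ELOVL5 and −0.0921 to 0.0652 for ELOVL4, and log2 of SCD over FASN from −0.035 to 0.026. Fold changes with both guides ranged from −0.025 to 0.056 for FADS1, −0.51 to 0.88 for ELOVL4 and −0.18 to 0.024 for ELOVL7, and SCD with sg4 from −0.0096 to 0.068. Without control library 1, without control library 3 and without sg2 library 2, FADS1 was −0.025, −0.0038 and −0.013. SCD with sg4 was −0.0048 without control library 1. Low counts limit ELOVL4, and 3 libraries a group limit every comparison.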
